A study of Mus musculus with 18 samples.

Results

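Cortex taken 28 d after transient focal ischemia was compared with cortex taken after sham surgery. The comparison ran over both arms of an experiment designed to knock down a gene in neurons. It used 12 of the 18 RNA-seq libraries of the series, chosen by their labels: R28d_C1 to R28d_C3 and R28d_T1 to R28d_T3 at 28 d, against Sham_C1 to Sham_C3 and Sham_T1 to Sham_T3. All mice were male C57BL/6J animals, 8 to 10 weeks old and 24 to 26 g. Each had received a virus (AAV-SYN) in the left lateral ventricle 4 weeks before surgery. In the T arm the virus encoded a short hairpin RNA against Tiparp, and in the C arm a scramble hairpin, so that every library, sham included, came from an injected brain. The synapsin promoter drives expression in neurons, while the tissue was whole ipsilateral cortex. Occlusion of the middle cerebral artery (tMCAO) was transient, and the 6 libraries taken 24 h after it serve here as a second point of comparison.

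Weeks after a stroke, dead tissue has largely been cleared by phagocytes, and microglia, astrocytes and fibroblasts form a border around the damaged area. Microglia in such tissue are known to express complement, lysosomal and antigen presentation genes, and astrocytes around it express intermediate filament genes. Neurons depend in part on cholesterol supplied by glia, and both cell types express genes of sterol synthesis.

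Values were FPKM, fragment counts scaled to transcript length and library size, tested as log2(FPKM + 1) with the arm as a covariate. The sum of all FPKM was 352400 to 409800 in the 28 d libraries and 393500 to 424100 in the sham libraries. Across genes, libraries of 1 group correlated at 0.970 to 0.990 at 28 d and at 0.990 to 0.992 in sham (Pearson). The median SD of a gene was 0.116 in R28d_C and 0.152 in R28d_T, against 0.087 in Sham_C and 0.104 in Sham_T. The 28 d libraries were graded. Over 19 gene lists with a median difference of at least 0.3, R28d_T1 was the highest 28 d library in 17 and R28d_C1 the lowest in 17, and R28d_T3 was among the lowest pair in 17. The median of these list medians was 0.051 above the sham mean in R28d_C1 and 0.21 in R28d_T3, against 1.22 in R28d_T1. R28d_C1 and R28d_T3 were singled out by the same values that are compared here. Counts without either of them are therefore a description and support no result. The transthyretin gene Ttr, a choroid plexus product, was at 712 FPKM in R28d_T2, against 624 and 501 FPKM in Sham_T1 and Sham_T2. In the other libraries Ttr was between 1.92 and 81.9 FPKM at 28 d and between 7.39 and 13.4 FPKM in sham. The share of all FPKM on genes of the mitochondrial genome was 31.2% to 40.3% at 28 d and 38.4% to 41.7% in sham.

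Of 14234 genes with at least 1 FPKM in at least 3 of the 12 libraries, 1 passed at an adjusted p under 0.05, the ribosomal protein gene Rps25, which was higher at 28 d (0.00703% of the genes), and 0 were lower. At an unadjusted p under 0.05, 1943 genes were higher (13.7%) and 522 lower (3.67%). The 6 values at 28 d and the 6 in sham did not overlap for 169 genes that were higher (1.19%) and 39 that were lower (0.274%). The second-lowest adjusted p in limma was 0.129, shared by 281 genes, and 611 genes were under 0.15. A large block of genes thus shared one adjusted value that did not pass, and many of the genes below carry it. Without R28d_C1, 463 genes were higher (3.26%) and 76 lower (0.536%). Without R28d_T3, 997 were higher (7.03%) and 153 lower (1.08%). Of the genes passing in these fits 395 were shared, 73.3% of those without R28d_C1 and 34.3% of those without R28d_T3. With array weights, which give libraries with more scatter less influence, 698 were higher (4.9%) and 102 lower (0.717%), and 394 genes passed in all 3 of these fits. Leaving out any other single library gave 1 higher and 0 lower, and fitting all 18 libraries together gave 0 and 0. With all 12 libraries 0 members of the gene lists below passed, so the list counts given without R28d_C1 or R28d_T3 hold for those fits alone. Each such count stands beside the share of all genes in its fit. For higher genes that share was 3.26% without R28d_C1 and 7.03% without R28d_T3, and for lower genes 0.536% and 1.08%. The 71 genes given below with their values, Rps25 apart, already did not pass against sham with 12 libraries. With single libraries left out, the highest adjusted p of each was 0.259 to 0.995.

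**Figure D1:**
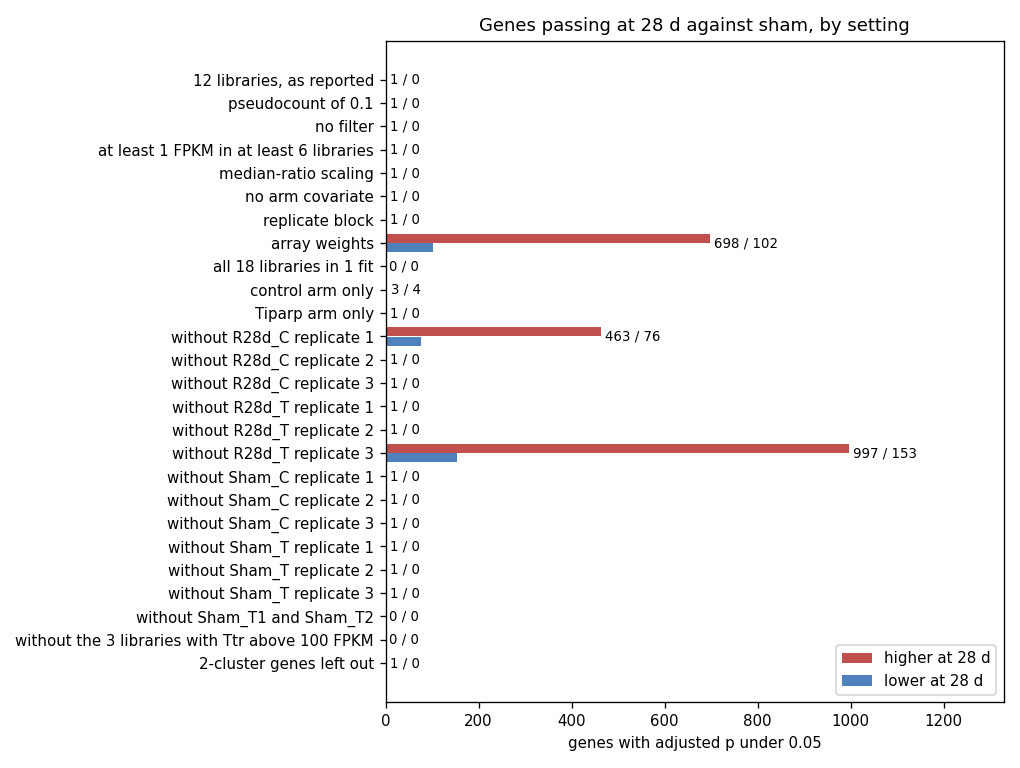
Genes with an adjusted p under 0.05 at 28 d against sham (x axis) under each setting (y axis), red for higher and blue for lower at 28 d, with the 2 counts printed at each bar. The counts are 463 and 76 without R28d_C1, 997 and 153 without R28d_T3 and 698 and 102 with array weights, and at most 3 and 4 elsewhere.

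Rps25 encodes a protein of the small ribosomal subunit. It was at 18.8, 21.2 and 17.6 FPKM in R28d_C1 to R28d_C3 and at 24.5, 20.4 and 19.2 FPKM in R28d_T1 to R28d_T3. In sham it was at 12.1, 10.7 and 10.7 FPKM in Sham_C1 to Sham_C3 and at 12.7, 12.3 and 12.6 FPKM in Sham_T1 to Sham_T3. Every 28 d library was above every sham library, R28d_C1 included. Rps25 rose to 20.3 ± 2.41 FPKM at 28 d, against 11.9 ± 0.925 FPKM in sham (SD, n = 6 each), a ratio of means of 1.71 (log2 difference 0.72, SE 0.07, limma adjusted p = 0.00201). Rps25 passed with each library left out in turn (adjusted p = 0.000688 to 0.0131). It did not pass with all 18 libraries in 1 fit (adjusted p = 0.096), in the control arm alone (0.0828), in the Tiparp arm alone (0.236), without Sham_T1 and Sham_T2 (0.0873) or without the 3 libraries high in Ttr (0.131). At 24 h Rps25 lay between 13.2 and 23.4 FPKM, above every sham library. In GENCODE gene models of another build it overlaps Trappc4 and Ccdc84 on the opposite strand. Of 30 cytosolic ribosomal protein genes on a list without Rps25, 29 had a log2 difference above 0 and 10 had an unadjusted p under 0.05, with a median difference of 0.11 and a highest of 0.29 (25 of 30 were above 0 after median-ratio scaling). Over all genes 62.6% lay above 0, 13.7% were higher at an unadjusted p under 0.05, and the median was 0.04.

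**Figure D2:**
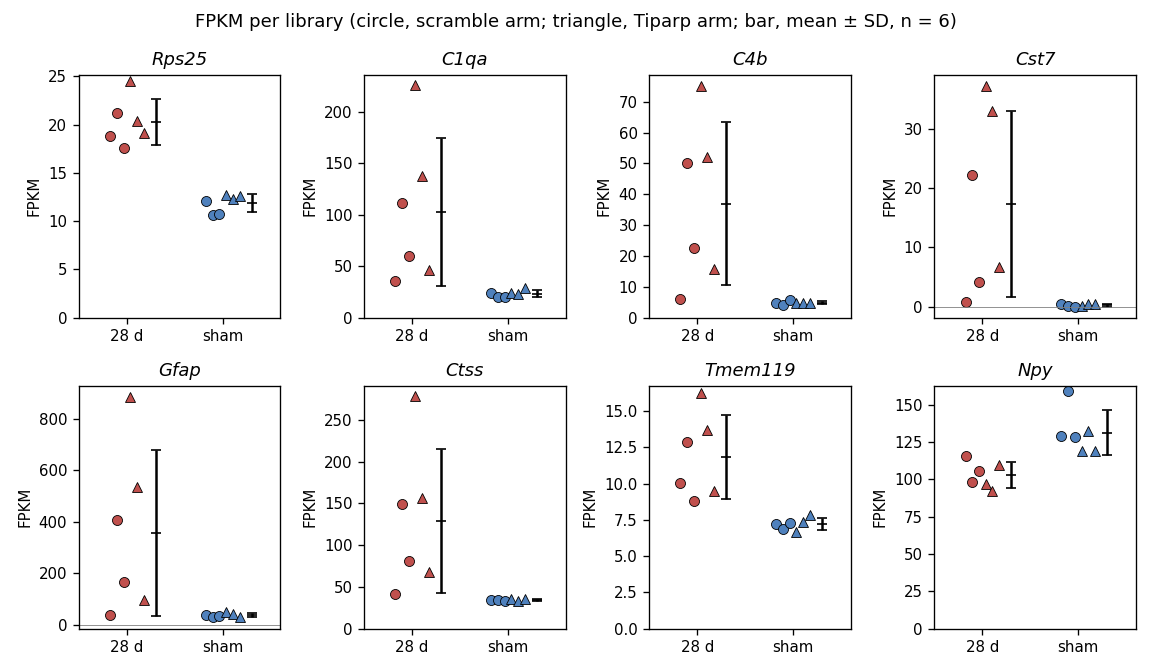
FPKM in each library (y axis) for 8 genes, 28 d in red left of sham in blue, circles for the scramble arm and triangles for the Tiparp arm, bars for mean ± SD with n = 6. Rps25 is between 17.6 and 24.5 FPKM at 28 d with no overlap, while Gfap spreads from 37.8 to 886 FPKM at 28 d against 27.5 to 49.5 FPKM in sham.

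Tiparp, the gene the hairpin is directed against, encodes a mono-ADP-ribosyltransferase. It was at 4.46, 3.59 and 3.78 FPKM in R28d_C and 3.97, 4.06 and 3.72 FPKM in R28d_T, against 4.45, 4.76 and 3.77 FPKM in Sham_C and 4.17, 4.95 and 4.57 FPKM in Sham_T. Values of the T and C arms overlapped both at 28 d and in sham, and for Tiparp the arms were not tested directly against each other. The 28 d and sham values overlapped as well. The log2 difference was -0.14, and an exact two-sided permutation of the labels within arms gave p = 0.05 over 400 labellings, not under the threshold of 0.05. It was 0.025 without R28d_C1, 0.025 without Sham_C3 and 0.045 without Sham_T1, and up to 0.14 with another library left out.

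Microglial identity genes were higher at 28 d. Tmem119, a membrane protein that marks microglia, was at 8.77, 11.4 and 16.3 FPKM at 28 d (lowest, median and highest) and at 6.66, 7.24 and 7.84 FPKM in sham. The groups did not overlap. The log2 difference was 0.62 (SE 0.12, limma adjusted p = 0.129). P2ry13, a purinergic receptor, was at 4.93, 6.23 and 10.3 FPKM at 28 d and at 3.28, 3.82 and 4.64 FPKM in sham. Its difference was 0.72 (SE 0.14), again without overlap and at the same adjusted p. Csf1r, the receptor on which microglia depend for survival, was at 20.7, 29.8 and 45.9 FPKM at 28 d, above its range of 15.5 to 19.1 FPKM in sham (difference 0.79, SE 0.18). Of 14 homeostatic microglia genes, all at the filter in sham too, 12 were above 0, and 10 had an unadjusted p under 0.05, 71.4% against 13.7% of all genes. Without R28d_C1 8 of the 14 passed, where 3.26% of all genes did, and without R28d_T3 10, where 7.03% did. The fractalkine receptor gene Cx3cr1 did not share this pattern. Cx3cr1 was at 1.68, 1.81 and 3.98 FPKM in R28d_C1, R28d_C3 and R28d_T1 and at 10.1 to 18.01 FPKM in the other 28 d libraries, against 1.68 FPKM in Sham_T3 and 8.58 to 10.9 FPKM in the other sham libraries. Low values thus occurred in both groups, and its difference of -0.31 had an SE of 0.55. In a bulk library more cells of a type and more RNA per cell cannot be told apart.

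Genes of the disease-associated microglia program, the state that microglia take up around debris and that needs the receptor Trem2, were higher with wide spread. Cst7, which encodes the protease inhibitor cystatin F, was at 0.870, 14.5 and 37.3 FPKM at 28 d and at 0, 0.239 and 0.456 FPKM in sham. The lowest 28 d library was R28d_C1, still above every sham library. The difference was 3.23 (SE 0.59, limma adjusted p = 0.129). Tyrobp, the signalling adaptor of Trem2, was at 21.1, 47.5 and 137 FPKM at 28 d and at 12.0, 15.7 and 19.1 FPKM in sham, with no overlap (difference 1.62, SE 0.34). Trem2 itself was at 3.24, 7.55 and 17.9 FPKM at 28 d, and R28d_C1 lay within its sham range of 2.26 to 3.52 FPKM (difference 1.24, SE 0.28). Apoe, a lipid carrier, reached 2690 FPKM in R28d_T1 and was at 496 FPKM in R28d_C1, inside the sham range of 461 to 537 FPKM. Its difference was 1.13 (SE 0.31, adjusted p = 0.141).

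The integrin gene Itgax was at 0.237 to 4.38 FPKM at 28 d and at 0.0124 to 0.102 FPKM in sham, without overlap. The pattern receptor Clec7a was at 0.147 to 18.9 FPKM at 28 d and at 0.0552 to 0.164 FPKM in sham, and only R28d_C1 overlapped sham. Gpnmb, a lysosomal glycoprotein of foamy macrophages, was at 0.480, 12.3 and 67.9 FPKM at 28 d and at 0.381, 0.433 and 0.826 FPKM in sham. Spp1, which encodes osteopontin, was at 4.97, 45.9 and 260 FPKM at 28 d and at 3.00, 6.14 and 6.76 FPKM in sham. Again R28d_C1 was the 28 d library within the sham range for both genes. Lpl, the lipoprotein lipase gene, was the weakest of those named, with a difference of 0.40 (SE 0.19, adjusted p = 0.308). Of the 24 genes on the list 23 were tested, and 7 of them reached the filter through the 28 d libraries and not through sham. Of the 16 at the filter in sham, 14 were higher at an unadjusted p under 0.05 (87.5%, against 11.7% of the 13342 genes at that filter), with a median of 1.04. The count over all 23, 21 higher with a median of 1.23 (1.06 without the 3 libraries high in Ttr), is partly set by the filter. With 12 libraries 0 of the 23 passed. Without R28d_C1 17 passed, where 3.26% of all genes did, and without R28d_T3 20, where 7.03% did.

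Receptors and adaptors of myeloid cells were also higher. Fcer1g, the shared gamma chain of Fc receptors, was at 9.94, 21.3 and 62.7 FPKM at 28 d and at 5.10, 6.60 and 8.54 FPKM in sham. Cd33, a sialic acid receptor that restrains microglia, was at 1.71, 2.44 and 4.38 FPKM at 28 d and at 1.10, 1.15 and 1.41 FPKM in sham. Neither gene overlapped between the groups (differences 1.62, SE 0.33, and 0.70, SE 0.15). Lag3, a checkpoint receptor first known from T cells, was at 5.71, 9.67 and 23.01 FPKM at 28 d and at 2.33, 2.86 and 4.35 FPKM in sham. Rasal3, a Ras GTPase-activating protein of blood-derived cells, was at 0.736 to 2.13 FPKM at 28 d and at 0.372 to 0.633 FPKM in sham. Both were among the next genes by p after Rps25 (differences 1.52, SE 0.27, and 0.65, SE 0.12, limma adjusted p = 0.129 each). Rasal3 met the filter only through the 28 d libraries, so its rank is partly set by the filter. Of 39 genes for Fc receptors and myeloid signalling 32 were tested, 14 of them through the 28 d libraries and not sham. Of the 18 at the filter in sham, 17 were higher at an unadjusted p under 0.05 (94.4%, against 11.7% of the genes at that filter), with a median of 0.99. The count over all 32, partly set by the filter, was 31 higher, against 13.7% of all genes, and 13 without overlap, against 1.19%, with a median of 0.86. With 12 libraries 0 of the 32 passed. Without R28d_C1 24 passed, where 3.26% of all genes did, and without R28d_T3 28, where 7.03% did.

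**Figure D3:**
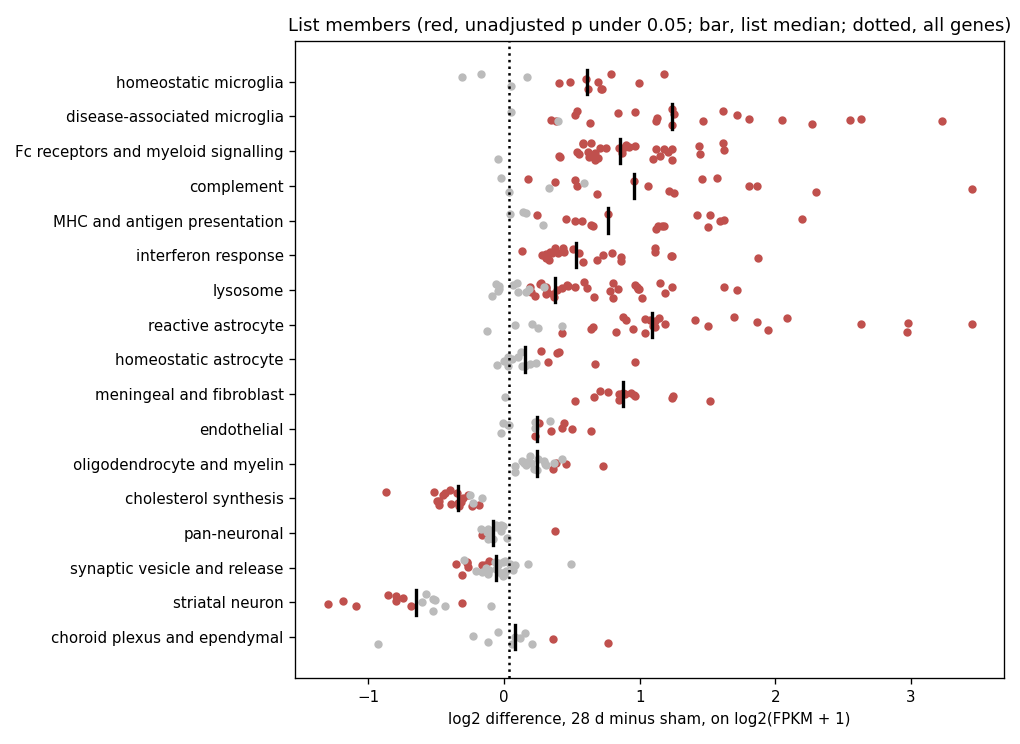
Log2 difference of each tested member, 28 d minus sham on log2(FPKM + 1) (x axis), by gene list (y axis), red for an unadjusted p under 0.05, bars for list medians and a dotted line for the median of all genes at 0.04. Disease-associated microglia (1.23) and reactive astrocyte (1.09) medians lie to the right, and striatal (-0.65) and cholesterol synthesis (-0.34) medians to the left. The microglia and astrocyte medians are partly set by the filter. Over members at the filter in sham they were 1.04 and 0.99.

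Markers of cells that enter from the blood were mostly too low to test. Of 18 monocyte and border macrophage markers 4 were tested, of 10 neutrophil markers 1 and of 22 lymphocyte markers 4. Of the 4 tested lymphocyte markers, 3 were above 0 and 1 below. The lower one was Cd4, which had the lowest p of them (difference -0.84, SE 0.22, limma adjusted p = 0.129, with overlap). Ccr2, which defines inflammatory monocytes, was at 0.0167 to 0.545 FPKM at 28 d and at 0.00467 to 0.0382 FPKM in sham. The neutrophil marker Ly6g was at 0 in 5 of the 28 d libraries and in 6 of the sham libraries, and the T cell marker Cd3e reached 0.169 FPKM at 28 d and 0.021 FPKM in sham. The summed level of the monocyte list was 11.3 to 631 FPKM at 28 d and 7.75 to 10.8 FPKM in sham. Most of that came from the lysozyme gene Lyz2, at 6.11, 124 and 597 FPKM at 28 d and at 3.37, 4.54 and 6.46 FPKM in sham. Lyz2 had the highest difference of all genes tested (3.81, SE 0.84, limma adjusted p = 0.129), with R28d_C1 inside the sham range. Cd14, the endotoxin co-receptor, was at 1.06 to 6.57 FPKM at 28 d and at 0.754 to 1.31 FPKM in sham. The part of such cells in the myeloid results was not tested.

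Antibody genes were high in 1 library. Igkc, the kappa light chain constant region, was at 1085 FPKM in R28d_T1 and at 0.531 to 27.8 FPKM in the other 28 d libraries, against 0.956 to 14.0 FPKM in sham. Jchain, which joins polymeric antibodies, was at 39.7 FPKM in R28d_T1, against at most 1.21 FPKM in the other 28 d libraries and at most 0.667 FPKM in sham. Igha, the IgA heavy chain, was at 153 FPKM in R28d_T1, against at most 3.04 FPKM in the other 28 d libraries and at most 0.770 FPKM in sham. R28d_T1 is also the library in which most glial lists were highest. These 3 genes did not pass, with differences of 1.95 (SE 1.33), 1.10 (SE 0.70) and 1.76 (SE 0.97).

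Complement genes were higher, with the initiating C1q chains without overlap. C1qa was at 35.5, 85.8 and 226 FPKM at 28 d and at 19.8, 23.5 and 28.9 FPKM in sham. C1qb was at 36.9, 101 and 247 FPKM at 28 d and at 27.9, 30.0 and 35.8 FPKM in sham. C1qc was at 23.5, 58.1 and 137 FPKM at 28 d and at 18.1, 19.0 and 22.4 FPKM in sham. The 3 chains had differences of 1.80 (SE 0.35), 1.57 (SE 0.35) and 1.46 (SE 0.34), each at a limma adjusted p of 0.129. C4b, the next component of the cascade, was at 5.93, 36.4 and 75.2 FPKM at 28 d and at 4.24, 4.83 and 5.71 FPKM in sham. R28d_C1 was the lowest and the groups did not overlap (difference 2.30, SE 0.47). C3, on which the pathways converge, was at 123 FPKM in R28d_T1 but at 0.121 FPKM in R28d_C1 and 0.611 FPKM in R28d_T3, against 0.0452 to 0.259 FPKM in sham. The C3 difference of 3.45 had an SE of 0.98 (adjusted p = 0.143). Serping1, the inhibitor of C1, was at 1.16 to 32.3 FPKM at 28 d and at 0.705 to 1.86 FPKM in sham (difference 1.86, SE 0.52). Of 27 complement genes 19 were tested, 6 of them through 28 d and not sham. Of the 13 at the filter in sham, 11 were higher at an unadjusted p under 0.05 (84.6%, against 11.7% of the genes at that filter). Of all 19, a count partly set by the filter, it was 15 (78.9%, against 13.7% of all genes), with a median of 0.95. With 12 libraries 0 of the 19 passed. Without R28d_C1 11 passed, where 3.26% of all genes did, and without R28d_T3 13, where 7.03% did.

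Lysosomal and antigen presentation genes were higher as well. Ctss, a cathepsin that trims the invariant chain, was at 41.2, 115 and 279 FPKM at 28 d and at 32.5, 33.9 and 35.5 FPKM in sham. The sham libraries lay within 3 FPKM of each other, and each 28 d library was above them (difference 1.62, SE 0.35, limma adjusted p = 0.129). Hexa, a hexosaminidase subunit, was at 18.6 to 49.0 FPKM at 28 d and at 12.9 to 18.8 FPKM in sham. Dnase2a, the acid DNase that digests engulfed DNA, was at 1.62, 2.95 and 5.40 FPKM at 28 d and at 0.535, 0.764 and 2.15 FPKM in sham (difference 1.04, SE 0.18), and had the next lowest p after Rps25 among the genes higher at 28 d. Dnase2a did not meet the filter in sham, so this rank is partly set by the filter. Of 44 lysosome genes, 42 of them at the filter in sham, 39 were above 0, with a median of 0.38. At an unadjusted p under 0.05, 33 of the 44 were higher (75%, against 13.7% of all genes). Without R28d_C1 17 of the 44 passed, where 3.26% of all genes did, and without R28d_T3 27, where 7.03% did. H2-T23, a non-classical class I gene, was at 2.81 to 6.66 FPKM at 28 d and at 2.08 to 2.89 FPKM in sham. H2-D1, a classical class I gene, was at 10.1 to 79.7 FPKM at 28 d and at 8.34 to 10.6 FPKM in sham, and Cd74, the class II invariant chain, was at 1.99 to 63.3 FPKM at 28 d and at 1.06 to 2.36 FPKM in sham. In these 3 genes the 28 d range began inside the sham range, with R28d_C1. Of 27 genes on the MHC list 21 were tested, 8 of them through 28 d and not sham. Of the 13 at the filter in sham, 10 were higher at an unadjusted p under 0.05 (76.9%, against 11.7% of the genes at that filter), with a median of 0.64. Without R28d_C1 12 of the 21 passed, where 3.26% of all genes did, and without R28d_T3 16, where 7.03% did.

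Interferon response genes were higher by less. Ifit3, an antiviral RNA-binding protein, was at 4.86, 7.60 and 13.7 FPKM at 28 d and at 3.11, 3.86 and 4.50 FPKM in sham, without overlap (difference 0.86, SE 0.16, limma adjusted p = 0.129). Ifitm3, which blocks viral entry, was at 3.70, 16.9 and 47.6 FPKM at 28 d and at 2.46, 3.21 and 4.23 FPKM in sham (difference 1.87, SE 0.41). Of 38 genes on the list 24 were tested, 12 of them through 28 d and not sham. The 12 at the filter in sham were all higher at an unadjusted p under 0.05 (100%, against 11.7% of the genes at that filter), with a median of 0.41. So were all 24 tested, with a median of 0.53, a count partly set by the filter. With 12 libraries 0 of the 24 passed. Without R28d_C1 15 passed, where 3.26% of all genes did, and without R28d_T3 18, where 7.03% did. The promoters of the tested members were searched for the interferon-stimulated response element, taken as the letters GAAA, NN and GAAA in a row, with N for any base, on either strand, in a window of 250 bases before to 50 after the RefSeq start site (build GRCm38.p6). Among 20 members with a RefSeq promoter, 10 held it (50%), against 3.44% of 9905 tested genes with a promoter. The 6 windows below are printed because they belong to the 5 members with the element and the highest differences and to the 1 with the lowest, Stat2. They run 5′ to 3′ on the strand of the gene, and capitals mark the element or its reverse complement.
Ifitm3: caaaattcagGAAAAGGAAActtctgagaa
Bst2: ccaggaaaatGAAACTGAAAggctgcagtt
Gbp2: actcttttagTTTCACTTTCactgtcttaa
Ifit3: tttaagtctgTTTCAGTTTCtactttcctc
Gbp3: acagtttcagTTTCTATTTCccagatccct
Stat2: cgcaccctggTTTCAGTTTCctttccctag

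The windows lie at chr7:141010723-141010752 (Ifitm3, minus strand), chr8:71537577-71537606 (Bst2, minus strand), chr3:142620594-142620623 (Gbp2, plus strand), chr19:34583397-34583426 (Ifit3, plus strand), chr3:142559995-142560024 (Gbp3, plus strand) and chr10:128270266-128270295 (Stat2, plus strand). Bst2, which tethers virus particles to the cell surface, was at 1.10, 5.598 and 12.9 FPKM at 28 d and at 0.661, 1.27 and 2.91 FPKM in sham (difference 1.24, SE 0.39). Gbp2, an interferon-induced GTPase, was at 0.606 to 6.21 FPKM at 28 d and at 0.195 to 0.624 FPKM in sham. Its relative Gbp3 was at 0.769 to 3.80 FPKM at 28 d and at 0.388 to 0.731 FPKM in sham, without overlap. Stat2, part of the factor that binds such elements, was at 2.87 to 3.63 FPKM at 28 d and at 2.69 to 3.16 FPKM in sham (difference 0.13, SE 0.06). Members that share the letters thus differed between 0.13 and 1.87. A PU.1 site, taken as GAGGAAGT on either strand, was in 5 of 26 promoters of the Fc receptor and myeloid list (19.2%), in 1 of 11 of the complement list (9.09%), in 1 of 18 of the disease-associated microglia list (5.56%) and in 3.34% of those of all tested genes. An MHC X box, taken as GCAACAG on either strand, was in 0 of 17 promoters of the MHC list, against 5.19% of those of all tested genes, which says only that these letters are not in these windows.

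Reactive astrocyte genes had some of the highest differences. Gfap, the astrocyte intermediate filament, was at 37.8, 286 and 886 FPKM at 28 d and at 27.5, 33.7 and 49.5 FPKM in sham. R28d_C1 lay inside the sham range and the other 5 libraries above it (difference 2.63, SE 0.60, limma adjusted p = 0.129). Serpina3n, a secreted protease inhibitor, was at 9.43, 89.2 and 361 FPKM at 28 d and at 6.19, 7.29 and 8.95 FPKM in sham, without overlap (difference 2.97, SE 0.72). Vim, a second filament gene, was at 2.33 to 56.4 FPKM at 28 d and at 1.72 to 3.63 FPKM in sham. Lcn2, a lipocalin, was at 97.2 FPKM in R28d_T1 and at 0.215 FPKM in R28d_C1 and 0.421 FPKM in R28d_T3, against 0.140 to 0.362 FPKM in sham (adjusted p = 0.156). Of 40 genes on the list 30 were tested, 16 through 28 d and not sham. Of the 14 at the filter in sham, 10 were higher at an unadjusted p under 0.05 (71.4%, against 11.7% of the genes at that filter), with a median of 0.99. Over all 30, a count partly set by the filter, 25 were higher. With 12 libraries 0 of the 30 passed. Without R28d_C1 18 passed, where 3.26% of all genes did, and without R28d_T3 24, where 7.03% did. Homeostatic astrocyte genes, all 17 at the filter in sham, had a median of 0.15, and 6 were higher by that measure (35.3%, against 11.7%). Among them the transcription factor Sox9 was at 8.51, 12.2 and 21.0 FPKM at 28 d and at 6.70, 7.54 and 8.21 FPKM in sham, without overlap (difference 0.67, SE 0.18). The water channel Aqp4 was at 19.0 to 82.6 FPKM at 28 d and at 13.5 to 23.3 FPKM in sham.

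Genes of fibroblasts were also higher, and genes of vessels less evenly so. Fmod, which encodes the collagen-binding fibromodulin, was at 3.06, 11.6 and 15.2 FPKM at 28 d and at 1.20, 2.87 and 3.97 FPKM in sham, and R28d_C1 was the 28 d library within the sham range (difference 1.51, SE 0.34). Dcn, decorin, was at 4.08, 9.31 and 22.1 FPKM at 28 d, above its sham range of 2.28 to 3.62 FPKM. Col1a1, a collagen I chain, was at 0.652 to 4.30 FPKM at 28 d and at 0.297 to 0.787 FPKM in sham. Of 11 meningeal and fibroblast genes at the filter in sham 10 were higher at an unadjusted p under 0.05 (90.9%, against 11.7% of the genes at that filter, median 0.89). Of all 15 tested, a count partly set by the filter, it was 14 (93.3%, against 13.7% of all genes, median 0.88). Without R28d_C1 11 of the 15 passed, where 3.26% of all genes did, and without R28d_T3 8, where 7.03% did. The summed level of that list was 175 to 597 FPKM at 28 d and 101 to 251 FPKM in sham. Meninges left on a cortex sample also carry these genes, and their part in the result was not tested. Vtn, vitronectin, which brain pericytes express, was at 11.4 to 26.7 FPKM at 28 d and at 8.75 to 13.4 FPKM in sham. The tight junction gene Cldn5 was at 0.879 to 4.47 FPKM at 28 d and at 1.17 to 1.51 FPKM in sham, and R28d_C1 was below every sham library (difference 0.64, SE 0.20, limma adjusted p = 0.154). Of 12 endothelial genes at the filter in sham, 5 were higher at an unadjusted p under 0.05 (41.7%, against 11.7%). Of 6 pericyte and smooth muscle genes, 5 were (83.3%). Over all 14 tested endothelial genes the median was 0.0646 in the control arm and 0.467 in the Tiparp arm. Over 10 pericyte and smooth muscle genes it was 0.361 and 0.343.

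**Figure D4:**
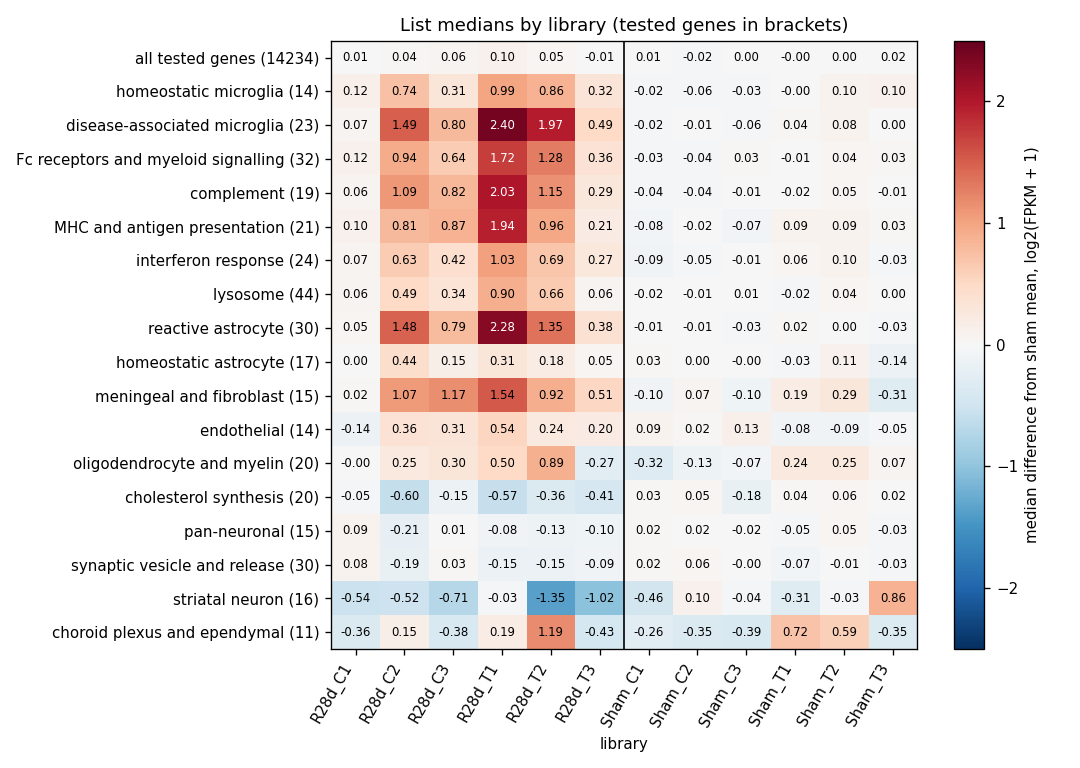
Median difference of each list from the sham mean on log2(FPKM + 1), by library (x axis, 28 d left of sham) and list (y axis, tested genes in brackets), red above and blue below 0. R28d_C1 is at 0.07 for disease-associated microglia and R28d_T1 at 2.40, while Sham_T3 stands at 0.86 in the striatal list and Sham_T1 and Sham_T2 at 0.72 and 0.59 in the choroid plexus list.

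Genes of cholesterol synthesis were lower at 28 d. Sqle, squalene epoxidase, was at 4.78, 5.41 and 7.96 FPKM at 28 d and at 6.84, 7.67 and 8.66 FPKM in sham. R28d_C1 and R28d_C3 lay inside the sham range and the other 4 libraries below it (difference -0.34, SE 0.11, limma adjusted p = 0.165). All 20 genes on the list were tested and all 20 were below 0, as they were after median-ratio scaling. At an unadjusted p under 0.05, 17 of the 20 were lower, 85% against 3.67% of all genes, with a median of -0.34 (-0.49 in the Tiparp arm and -0.20 in the control arm over the same 20 genes). With 12 libraries 0 of the 20 passed. Without R28d_C1 8 of 19 tested passed, where 0.536% of all genes were lower, and without R28d_T3 3 of 20, where 1.08% were. A sterol regulatory element, taken as CACCCCAC on either strand, was in 1 of 12 of their promoters (8.33%), against 3.83% of those of all tested genes.

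Neuronal genes differed less. Npy, a neuropeptide of inhibitory cells, was at 92.1, 102 and 116 FPKM at 28 d and at 119, 129 and 160 FPKM in sham, without overlap (difference -0.34, SE 0.07, limma adjusted p = 0.129). Pcp4, a calmodulin regulator of deep-layer and striatal neurons, was at 177, 207 and 271 FPKM at 28 d and at 271, 298 and 353 FPKM in sham. R28d_C1 was just under the lowest sham library (271.1 against 271.2 FPKM), and the difference was -0.51 (adjusted p = 0.129). Hras, a small GTPase, was at 9.66, 11.4 and 11.9 FPKM at 28 d and at 13.4, 13.6 and 14.6 FPKM in sham. The extrasynaptic GABA receptor subunit gene Gabrd was at 9.05, 11.8 and 14.6 FPKM at 28 d and at 15.3, 15.9 and 18.9 FPKM in sham. Neither gene overlapped (differences -0.30, SE 0.06, and -0.43, SE 0.10). Ntrk2, the receptor of the growth factor BDNF, which astrocytes express as well, ran the other way, at 36.8, 43.4 and 53.5 FPKM at 28 d and at 30.8, 32.8 and 34.5 FPKM in sham (difference 0.40, SE 0.08). The lipase gene Pla2g4e was at 1.77 to 3.06 FPKM at 28 d and at 2.75 to 3.44 FPKM in sham (difference -0.34, SE 0.06). Npas4, a transcription factor induced by activity, was at 5.85 to 13.6 FPKM at 28 d and at 12.9 to 21.6 FPKM in sham, and Cplx2, a complexin of the release machinery, was at 197 to 324 FPKM at 28 d and at 288 to 319 FPKM in sham. Both overlapped.

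Taken by list, 13 of 15 pan-neuronal genes were below 0 with a median of -0.08, and 23 of 30 genes of synaptic vesicles with a median of -0.06. At an unadjusted p under 0.05, 1 and 8 of these were lower (6.67% and 26.7%, against 3.67% of all genes) and 1 and 0 higher. Glutamate, GABA and glycine receptors had a median of -0.01 over 39 genes, and nuclear respiratory chain genes of -0.02 over 30. The 13 protein genes of the mitochondrial genome were all below 0, with a median of -0.22 and 6 at an unadjusted p under 0.05 (46.2%, against 3.67%). Their summed level was 103700 to 149900 FPKM at 28 d and 140400 to 163400 FPKM in sham. FPKM is a share of the library, so a lower level of such abundant genes and a higher level of others cannot be told apart.

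Striatal genes were lower, with spread in both groups. All 16 markers were below 0 (median -0.65), and 9 were lower at an unadjusted p under 0.05 (56.2%, against 3.67% of all genes). Rasd2, a GTPase abundant in striatum, was at 12.5, 16.1 and 21.0 FPKM at 28 d and at 22.3, 28.9 and 35.3 FPKM in sham, without overlap (difference -0.70, SE 0.14, limma adjusted p = 0.129). Scn4b, a sodium channel subunit, was at 5.12 to 15.7 FPKM at 28 d and at 12.7 to 28.3 FPKM in sham. Lrrc10b, a leucine-rich repeat gene used as a striatal marker, was at 1.30 to 3.31 FPKM at 28 d and at 2.86 to 6.64 FPKM in sham. The summed level of the list was 60.6 to 225 FPKM at 28 d and 154 to 389 FPKM in sham, and its median stood 0.86 above the sham mean in Sham_T3. Striatum lies under the cortex sampled, and the part of its share in each sample was not tested.

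Some further genes were named by p or by their lists. Dnttip1, a subunit of a histone deacetylase complex, was at 9.27, 9.50 and 9.87 FPKM at 28 d and at 7.62, 8.04 and 8.52 FPKM in sham. With 28 d libraries within 1 FPKM of each other and no overlap, its difference was small and even (0.22, SE 0.04, limma adjusted p = 0.129). Klf6, an injury-induced transcription factor, was at 7.24, 7.96 and 10.7 FPKM at 28 d and at 6.08, 6.48 and 6.84 FPKM in sham, without overlap. Hspb1, a small heat shock protein of reactive astrocytes, was at 1.18, 2.64 and 7.84 FPKM at 28 d and at 0.412, 0.699 and 1.14 FPKM in sham (difference 1.19, SE 0.30). The chemokine gene Ccl12 was at 0.473 to 4.32 FPKM at 28 d and at 0 to 0.557 FPKM in sham. Pcdhga4, 1 of the clustered protocadherins, was at 1.77 FPKM in R28d_T3 and at 0.0653 to 0.141 FPKM in the other 28 d libraries, against 2.07 to 2.35 FPKM in sham. Its model overlaps other genes of the cluster on the same strand, so its level is uncertain.

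Gene functions recorded in the deposited table were counted over all tested genes only, and 12232 of these (85.9%) had one. Of 146 tested genes annotated to the inflammatory response 75 were higher at an unadjusted p under 0.05 (51.4%) and 5 lower, of 191 annotated to immune system process 95 (49.7%) and 4, and of 86 annotated to defense response to virus 37 (43%) and 2. Of 36 genes annotated to collagen trimer 20 were higher (55.6%) and 1 lower, and of 155 angiogenesis genes 52 (33.5%) and 3. The highest difference under collagen trimer was 1.80, the same as for C1qa. Collagens were not counted apart from other members of that term. Of 23 genes of cholesterol biosynthetic process 1 was higher and 12 lower (52.2%, against 3.67% of all genes), and of 38 of neuropeptide signaling 1 was higher and 8 lower (21.1%). Translation, with 38 of 280 higher (13.6%), and regulation of transcription, with 194 of 1562 (12.4%), lay near the 13.7% of all genes. The terms share genes with the lists above. Of the 14234 tested genes, 641 reached the filter through the 28 d libraries and not through sham. The counts of higher genes by term are therefore partly set by the filter, and were not repeated at the filter in sham.

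Whether the 28 d difference was the same in both arms was tested as an interaction. Of 14234 genes 1 passed (0.00703%), Ube2o, an E2 and E3 ubiquitin ligase, and 690 had an unadjusted p under 0.05 (4.85%). Ube2o was at 25.9, 23.5 and 27.2 FPKM in R28d_T, against 17.2, 17.4 and 18.4 FPKM in Sham_T. In the control arm it was at 17.4, 18.4 and 18.6 FPKM in R28d_C, against 27.9, 28.9 and 29.8 FPKM in Sham_C. The groups of each arm did not overlap and ran in opposite directions (difference between the arms 1.15, limma adjusted p = 0.00164). The 24 h libraries lay between 19.1 and 26.6 FPKM. The count of such genes was 2 without R28d_C1, 3 without R28d_C3, 3 without R28d_T1, 2 without R28d_T2 and 0 without Sham_T1 and Sham_T2. Over the same 23 genes, the median difference of the disease-associated microglia list was 1.52 in the Tiparp arm and 0.88 in the control arm. Over the same 30 genes, that of the reactive astrocyte list was 1.30 in the Tiparp arm and 0.80 in the control arm. These medians are partly set by the filter, which 7 of the 23 and 16 of the 30 met through 28 d and not sham. By library, the astrocyte list median was 0.0465, 1.48 and 0.785 above the sham mean in R28d_C and 2.28, 1.35 and 0.384 in R28d_T. No gene of these lists passed the interaction.

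Set against 24 h, 28 d cortex had 218 genes higher (1.48%) and 221 lower (1.5%) of 14745 tested. This comparison shares its 28 d libraries with the one above. Apoe rose to 496, 1134 and 2690 FPKM at 28 d, against 273, 368 and 526 FPKM at 24 h (lowest, median and highest), a difference of 1.53 (limma adjusted p = 0.0397). Ntrk2 rose (0.51, adjusted p = 0.0348) to 36.8 to 53.5 FPKM, against 27.0 to 36.6 FPKM at 24 h, without overlap, and Rasal3 rose (0.50, adjusted p = 0.0499). Npy fell (-0.47, adjusted p = 0.0433). Hspb1 fell to 1.18, 2.64 and 7.84 FPKM at 28 d, against 2.74, 31.5 and 58.5 FPKM at 24 h (-2.59, adjusted p = 0.0435). The vascular cadherin gene Cdh5 fell to 0.806 to 3.10 FPKM, against 1.81 to 13.6 FPKM at 24 h (-1.50, adjusted p = 0.0443) and 0.788 to 1.15 FPKM in sham. Klf6 (-0.97, adjusted p = 0.0275), Ccl12 (-2.03, adjusted p = 0.0254), Gbp2 (-1.82, adjusted p = 0.0321), Gbp3 (-1.20, adjusted p = 0.0321) and Stat2 (-0.61, adjusted p = 0.0482) fell. Of these 11 genes 0 passed without R28d_C2, R28d_C3, R28d_T2, R28d_T3, R24h_C1 or R24h_T2, 1 without R28d_C1, 2 without R24h_C2, 3 without R24h_T1, 6 without R24h_C3, 10 without R28d_T1 and 11 without R24h_T3.

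Lists were counted over the genes tested against sham, which leaves out members at the filter through 24 h alone. Of these 14234 genes, 175 fell and 218 rose between 24 h and 28 d. By list, 7 of 14 endothelial genes, 5 of 24 interferon response genes and 4 of 30 reactive astrocyte genes fell. Of 14 homeostatic microglia genes 5 rose. Median differences from 24 h were 0.56 for homeostatic microglia, -0.11 for disease-associated microglia, -1.02 for reactive astrocytes, -0.90 for endothelial genes and -0.04 for complement. C1qa was at 49.4, 78.8 and 94.2 FPKM at 24 h, inside its 28 d range. The counts over all genes depended on single libraries, with 1 higher and 1 lower without R28d_C2 or without R28d_C3, and 701 and 1925 without R24h_T3. Without R28d_C1 they were 69 and 18, without R28d_T2 10 and 3, without R28d_T3 66 and 20, without R24h_C1 11 and 3, without R24h_C2 74 and 37, without R24h_T1 107 and 46, and without R24h_T2 23 and 8. Without R28d_T1 468 were lower, and without R24h_C3 93 were lower. In the Tiparp arm alone 0 genes passed in either direction.

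**Figure D5:**
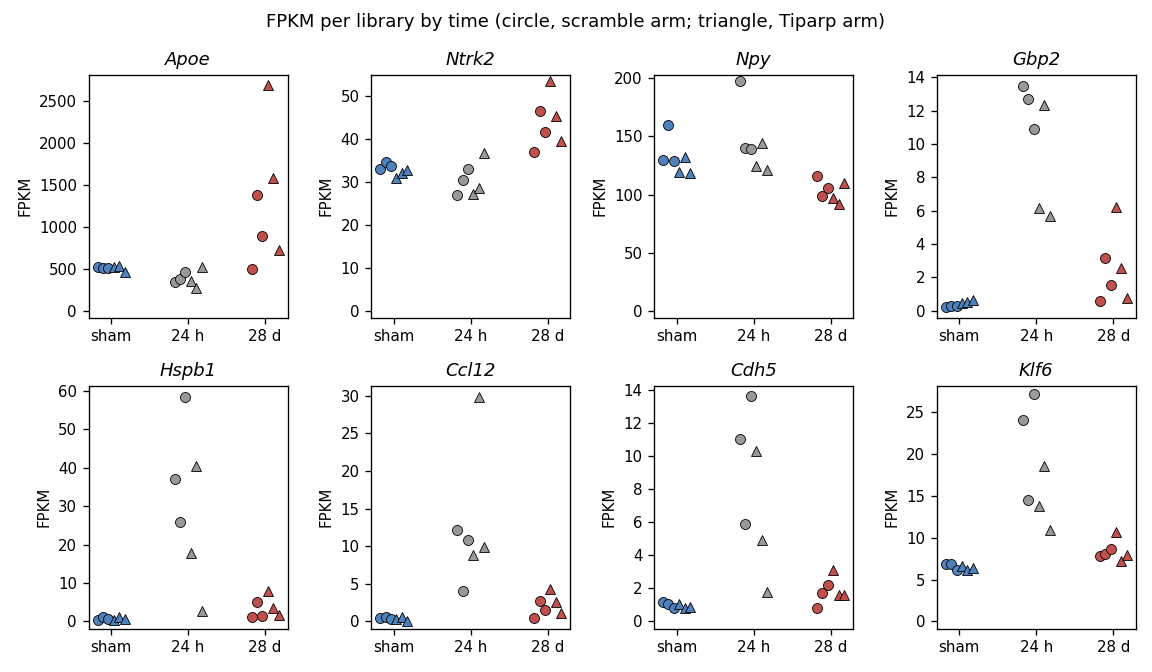
FPKM in each library (y axis) of 8 genes that passed between 28 d and 24 h, in the order sham, 24 h and 28 d (x axis), circles for the scramble arm and triangles for the Tiparp arm. Apoe and Ntrk2 are highest at 28 d, Npy is lowest at 28 d, and Gbp2, Hspb1, Ccl12, Cdh5 and Klf6 peak at 24 h.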

How the data were processed

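RNA-seq was done on ipsilateral mouse cortex, 3 libraries in each of 6 groups. Reads were mapped with HISAT and quantified with StringTie on mm9, and edgeR was used for testing, per the submitters' processing notes (no versions given). The deposited FPKM per gene (37319 entries, 62 repeated symbols, of which the highest mean was kept) come from poly(A)-selected, strand-marked libraries, per the labels' protocols. The unit keeps no read totals; low values gave depths of 0.933 to 1.09 times that of Sham_C1, a ratio that only 5.86% to 7.23% of low genes shared, so counts could not be recovered.

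log2(FPKM + 1) was fitted with limma 3.58.1 (trend, empirical Bayes; R 4.3.3), two-sided, with Benjamini-Hochberg adjustment. The pseudocount of 1 shrinks differences of low genes. Genes needed 1 FPKM in 3 libraries of the fit, so a gene near 0 in sham was tested only if high at 28 d. Rasal3, Cst7, Itgax, Clec7a, Gpnmb, C3, Gbp2, Gbp3, Lcn2, Col1a1, Ccl12, Jchain and Igha were under 1 FPKM in every sham library. Dnase2a and Hspb1 also did not meet the filter in sham. The ranks, differences and lack of overlap of such genes are partly set by the filter. No label ties each library to its own mouse, so the p-values reflect only library spread, which may be technical. Python 3.11.15 with pandas 2.3.3, scipy 1.17.1 and matplotlib 3.10.9 made tables and figures. On simulated data with 200 changed genes, the fit of 28 d against sham over 14234 genes recovered 93% of genes shifted by 1 log2 unit and 99% of those shifted by 2, and 4.48% of its calls were false. Simulated noise was independent between genes and equally wide in both conditions, and the shifted genes were drawn at random. In the data, spread was wider at 28 d. Of the 127 genes at least 1 log2 unit higher and the 10 at least 1 lower, none passed. The simulated rates therefore do not carry over to these data.

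The members and the 57 gene lists were chosen with earlier results of these data known. Named genes came from a rule (the called genes, the next 5 by p each way, the 2 lowest p of each list, Tiparp). Of 73 genes with full values in the text 51 came from it, and 22 were chosen after their values were seen: Cx3cr1, Trem2, Clec7a, Spp1, Lpl, Gpnmb, C1qb, C1qc, C3, Serping1, H2-D1, Cd74, Vim, Serpina3n, Sqle, Igkc, Igha, Ttr, Bst2, Gbp2, Gbp3 and Stat2. The defining markers Ccr2, Ly6g and Cd3e are also outside the rule. Cd4, which the rule gave, is given by its difference alone and is not among the 73. Some genes are not reported here. Alternatives were another pseudocount, filters, scaling, covariates, weights and left-out libraries. Promoters and start sites are RefSeq GRCm38.p6, another build than the file's, and overlaps are from GENCODE models.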

Additional observations from a re-analysis of the deposited data

Results flagged for a closer look

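Values of 73 genes in the 6 libraries at 28 d and the 6 in sham were searched on the log2 scale for single libraries that stood apart. In 11 of 146 groups the gap, relative to the group's range, was over Dixon's critical value. Chance gives about 1 in 20 for independent groups. These genes share libraries and 22 were chosen after their values were seen, so the count cannot be set against that rate. At 28 d the values that stood apart were Jchain (39.7 FPKM) and Igha (153 FPKM) in R28d_T1, and Pcdhga4 (1.77 FPKM) in R28d_T3. In sham they were Cx3cr1 (1.68 FPKM), Pla2g4e (2.75 FPKM) and Ccl12 (0.0 FPKM) in Sham_T3, Gpnmb (0.826 FPKM) in Sham_C3, Npy (160 FPKM) in Sham_C2, Itgax (0.102 FPKM) in Sham_C1, Clec7a (0.164 FPKM) in Sham_T1 and Hras (14.6 FPKM) in Sham_T2. The 28 d difference of Ube2o was 1.15 higher in the Tiparp arm than in the control arm by the interaction test.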

How the results depend on the processing

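Of 1757 values of 72 genes at 28 d against sham under the alternatives, 1563 kept their direction and side of the threshold, 182 passed where the 12 libraries did not, 5 no longer passed (all Rps25) and 7 turned sign. Of those that newly passed, 60 came without R28d_C1, 59 without R28d_T3 and 61 with array weights. Ube2o turned to 0.51 in the Tiparp arm alone, 0.0072 without R28d_C1 and 0.0050 without Sham_C3 (-0.153 to 0.0072 with each library left out). Cx3cr1 turned to 0.36 in the Tiparp arm alone. Ttr, at -0.93 over 12 libraries, turned to 0.054 in the control arm alone, 0.75 without Sham_T1 and Sham_T2 and 0.034 without the 3 libraries high in Ttr, an alternative chosen after seeing the data. The causes were not tested.

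Counts higher and lower at 28 d than in sham, 1 and 0 over 12 libraries, were 698 and 102 with array weights, 3 and 4 in the control arm alone, 0 and 0 with all 18 libraries in 1 fit, without Sham_T1 and Sham_T2 and without the 3 libraries high in Ttr, and 1 to 997 and 0 to 153 with each library left out. Genes that differed between the arms, 1 as reported, were 5 with no filter, 21 with array weights (whose estimation stopped before convergence in this fit alone), 0 without Sham_T1 and Sham_T2 or the 3 libraries, and 1 to 3 with each library left out. Against 24 h, 218 and 221 became 17 and 3 with no filter, 332 and 292 with median-ratio scaling, 798 and 1639 with array weights, 858 and 1613 with all 18 libraries, 169 and 670 in the control arm alone and 0 and 0 in the Tiparp arm alone, and 1 to 701 and 1 to 1925 with each library left out. Replicate numbers did not pair libraries (correlation of same-numbered libraries -0.339 to 0.143 over 18 pairs, of other numbers -0.334 to 0.406), and the replicate block gave 1 and 0 against sham and 76 and 41 against 24 h. Tiparp had p = 0.035 in the exact permutation test after scaling (log2 difference -0.19), and a difference of -0.181 to -0.113 with each library left out. Scaling moved the median of all genes to -0.01, put 7610 of 14234 genes below 0, and turned the sign of 7 of 57 list medians, of which none is described above. Depth limits low genes, since totals are unknown.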
